A study of Mus musculus with 4 samples.

Results

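Replication and mitosis genes were followed through the cell types of fetal leg muscle. The set held 34 of the 32285 genes in the feature table and was chosen by gene symbol, with earlier results of these data known. An S list of 13 genes covered DNA replication and nucleotide supply (*Mcm2* to *Mcm7*, *Gins2*, *Pcna*, *Ung*, *Rrm1*, *Rrm2*, *Tyms* and *Slbp*). A G2/M list of 21 genes covered chromosome condensation, mitotic kinases, kinetochores and the spindle (*Mki67*, *Top2a*, *Hmgb2*, *Cdk1*, *Ccnb1*, *Ccnb2*, *Ccna2*, *Aurka*, *Aurkb*, *Plk1*, *Cenpf*, *Cenpe*, *Bub1*, *Bub1b*, *Birc5*, *Ube2c*, *Tpx2*, *Kif11*, *Kif23*, *Nusap1* and *Prc1*). All 34 genes had unique molecular identifiers (UMIs, the tags by which captured transcripts are counted) in each of the 4 libraries.

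The leg muscles came from fetal mice at E18.5, shortly before birth. Of the 4 droplet-based single-cell libraries, 2 were wild type (WT) and 2 lacked *SYISL* (knockout, KO), which is a long non-coding RNA of a *Synpo2* intron, and per the study's methods the fetuses were littermates from heterozygous mothers, genotyped from tail tissue. The strain, the number of fetuses in a library and the design of the KO allele were not given in the labels. The comparisons ask in which cell types the cell cycle genes are active and whether the KO moves them.

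Of 41741 barcodes 36969 cells were kept, between 8177 and 10461 per library, with a median of 10371 and 11427 UMIs per cell in WT and of 9118 and 9727 in KO. No gene in the feature table carries the name *SYISL*, so its loss was not read. KO replicate 2 stood apart in sex-linked transcripts, with 131038 UMIs of *Xist* against at most 5 in any other library and 105 UMIs of 4 Y-linked genes against 25478 or more, and pairs of libraries shared 15 to 27 cell barcodes. Within the KO group that pattern and the replicate cannot be told apart, so some KO results are also given without that library. The series description calls the 2 libraries of a genotype biological replicates, and p-values measure the spread between them.

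Proliferating cells copy their DNA in S phase and divide it in mitosis after G2. Genes for the replication machinery are transcribed mostly from late G1 into S phase under E2F factors, and genes for mitosis mostly in G2 and M phase under B-Myb and FOXM1 complexes that bind CHR elements near CCAAT boxes. Muscle progenitors divide, and myoblasts that differentiate leave the cell cycle before they fuse into myotubes, whose nuclei no longer divide.

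Promoter sequences of the members differed between the lists in CHR and E2F letters, and CCAAT was common in both lists. RefSeq promoters (GRCm38.p6, 250 bases before to 50 bases after the start) were found for 29 of the 34 genes, as 31 windows, with more than 1 for *Mcm7* and *Prc1*. CCAAT on either strand was in 27 of the 31 windows (87.1%) and in 37.4% of all 32851 promoters. By list it was in 83.3% of the S windows and 89.5% of the G2/M windows. TTTGAA or TTTAAA, the letters of a CHR element, was in 17 of the 19 G2/M windows (89.5%), in 3 of the 12 S windows (25%) and in 27.6% of all promoters. The E2F letters TTTCCCGC, TTTGGCGC or TTTCGCGC were in 4 of the 12 S windows (33.3%), in 1 of the 19 G2/M windows (5.26%) and in 1.84% of all promoters. The 4 S windows were those of *Mcm3*, *Mcm5*, *Mcm6* and *Mcm7*. Occurrences on both strands were counted and the 3 motifs can overlap. A match describes letters and not a bound site. The 200 bases before the start are printed for 4 G2/M genes and 2 S genes, from 5′ to 3′ on the strand of the gene, with matched motif letters in capitals. They are part of the windows searched. They lie at chr7:135716380-135716579 (minus strand), chr13:100786487-100786686 (minus strand), chr11:99024190-99024389 (minus strand), chr10:69352913-69353112 (minus strand), chr8:75109309-75109508 (plus strand) and chr2:132253181-132253380 (minus strand).
Mki67: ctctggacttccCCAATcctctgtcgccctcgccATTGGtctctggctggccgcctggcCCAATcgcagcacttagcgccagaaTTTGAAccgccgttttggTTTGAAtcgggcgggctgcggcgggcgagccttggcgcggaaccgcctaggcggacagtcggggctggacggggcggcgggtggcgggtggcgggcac
Ccnb1: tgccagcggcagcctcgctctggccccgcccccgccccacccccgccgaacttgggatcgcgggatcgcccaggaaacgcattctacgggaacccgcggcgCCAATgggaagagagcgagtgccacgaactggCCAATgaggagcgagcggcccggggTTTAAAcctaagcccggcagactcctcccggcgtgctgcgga
Top2a: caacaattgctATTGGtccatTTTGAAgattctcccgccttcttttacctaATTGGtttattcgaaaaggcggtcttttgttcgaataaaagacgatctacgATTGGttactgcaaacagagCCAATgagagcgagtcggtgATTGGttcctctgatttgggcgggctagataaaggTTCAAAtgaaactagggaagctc
Cdk1: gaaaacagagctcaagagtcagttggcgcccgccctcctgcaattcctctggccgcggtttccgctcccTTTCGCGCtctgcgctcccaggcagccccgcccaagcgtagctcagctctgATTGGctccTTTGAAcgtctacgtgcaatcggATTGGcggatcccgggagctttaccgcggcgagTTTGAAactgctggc
Mcm5: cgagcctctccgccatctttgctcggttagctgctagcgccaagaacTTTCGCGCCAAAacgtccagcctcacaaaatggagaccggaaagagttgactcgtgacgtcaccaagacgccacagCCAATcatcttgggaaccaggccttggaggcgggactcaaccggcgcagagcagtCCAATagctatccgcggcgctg
Pcna: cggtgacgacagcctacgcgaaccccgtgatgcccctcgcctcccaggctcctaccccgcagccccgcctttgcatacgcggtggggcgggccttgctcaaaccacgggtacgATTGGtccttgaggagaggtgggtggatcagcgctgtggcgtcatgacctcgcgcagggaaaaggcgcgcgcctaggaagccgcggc

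In the printed windows *Mki67* had CCAAT on 3 occasions and TTTGAA on 2, *Top2a* had CCAAT on 5 and a CHR-type sequence on 2, and *Ccnb1* had CCAAT on 2 and TTTAAA on 1. *Cdk1* held all 3 motifs. *Mcm5* had 2 overlapping E2F matches, CCAAT on 2 occasions and no CHR letters, and *Pcna* had a CCAAT alone. Outside the printed bases *Mcm5* did hold CHR letters, since its full searched window had them on 1 occasion and CCAAT on 3.

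Cell types were rebuilt by clustering the cells without 581 genes, which included the 34 members, 65 other cell cycle genes and genes whose levels followed the members. The members' own values were not clustered, but they decided which correlated genes were left out, a choice made after first clusters had been seen. Clusters were named from marker lists, and the names of the classes are rebuilt rather than taken from the study. FAP-like cells (fibro-adipogenic progenitors, the connective tissue cells of muscle) numbered 17136 and myogenic-like cells 6708. Among the other classes were 2375 chondrocyte-like, 2266 tenocyte-like, 1823 glial-like, 1342 endothelial-like, 1747 smooth muscle or pericyte-like, 1074 macrophage-like, 286 mast-like, 214 neutrophil-like and 44 lymphoid-like cells. Of the defining markers, 8 of 8 were raised in the macrophage-like, chondrocyte-like, glial-like, endothelial-like, tenocyte-like, mast-like and neutrophil-like clusters. In the 2 clusters of the myogenic-like class 5 and 6 of 8 were raised, and in the lymphoid-like cluster 3 of 6. A cluster of 1511 cells led by *Ccl11* and a cluster of 443 cells with both myogenic and FAP markers stayed unnamed, and Scrublet marked 58% of the latter as doublets. Myogenic-like cells were divided into 4218 progenitor-like and 1049 myoblast-like cells, with 79 more that were myotube-like, while 1362 cells fell in sub-clusters without a stage, of which 1297 were led by *Ctnna2*, *E2f2*, *Myod1*, *Myb* and *Sox8*. Stages were named from marker lists, and the myoblast list included the CDK inhibitor gene *Cdkn1c*. With cell cycle genes kept in the clustering, 3090 cells were progenitor-like and 775 myoblast-like. A sub-cluster of 1775 cells led by *Aurkb* and *Kif11* then had no stage, and shares by stage are not given for that alternative.

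The members were first set against phases called from genes other than themselves. The 65 other cell cycle genes, 30 of S phase and 35 of G2/M, placed each cell in S, in G2/M or in neither. In FAP-like and in myogenic-like cells 21 of 21 G2/M members were higher in G2/M cells than in S cells in all 4 libraries. *Cenpf*, a kinetochore protein of G2, had the largest ratio among FAP-like cells, with a mean of 307 UMIs per 1000000 UMIs of the same cells (CPM) in G2/M cells, 11.8 CPM in S cells and 3.16 CPM in cells in neither phase. *Ccnb1*, the cyclin that activates CDK1 at mitotic entry, stood at 144, 6.67 and 1.49 CPM in the same 3 groups. *Hmgb2*, a chromatin protein, had the smallest ratio, with 1600, 502 and 227 CPM.

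The S members separated the phases less. In myogenic-like cells 10 of the 13 were higher in S than in G2/M cells in all 4 libraries, and in FAP-like cells 9. *Ung*, the uracil-DNA glycosylase, was the steepest of them, at 38.5 CPM in S, 10.4 CPM in G2/M and 9.46 CPM in FAP-like cells in neither phase. *Rrm2*, the small subunit of ribonucleotide reductase, went the other way, at 53.4, 113 and 9.65 CPM, and *Rrm1*, the large subunit, stood at 85.8, 109 and 33.7 CPM. *Tyms*, thymidylate synthase, was also higher in G2/M than in S among FAP-like cells in all 4 libraries (97 CPM in S, 129 CPM in G2/M), while in myogenic-like cells both phases had 114 CPM. Cells in neither phase held a median of 28.2% of the UMIs of an S member and of 4.39% of those of a G2/M member in FAP-like cells, and of 11.7% and 1.66% in myogenic-like cells.

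Phases were then called from the members themselves, with every cell thinned to 2000 UMIs so that depth was equal. A cell was called cycling when either list had at least 3 UMIs, and it was given the phase with the higher count, or G2/M at a tie. There were 36840 cells deep enough, of which 9752 were called G2/M and 4300 S. Of these G2/M cells 68.3% were also called G2/M by the 65 other genes, and of the S cells 58.2% were called S. Calls lay close to the limit in 9745 cells (26.5%), which had 2 or 3 UMIs of their higher list. The classes called from counts are ranges and not separate types of cell.

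**Figure D1:**
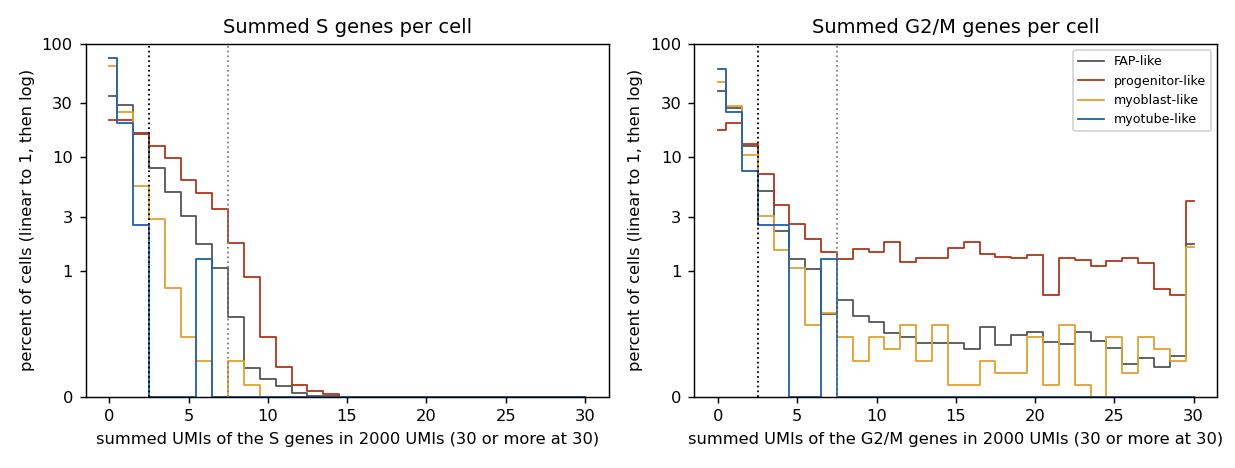
Percent of cells (vertical axis) by the number of S-list or G2/M-list UMIs per cell after thinning to 2000 UMIs (horizontal axis), for FAP-like cells and for the myogenic stages (progenitor-like, then myoblast-like, then myotube-like). The vertical axis is linear to 1 and logarithmic above. Most cells lie at low counts, and G2/M counts have a long tail, with 8 or more UMIs in 11.7% of FAP-like and 32.5% of progenitor-like cells and in 0% of the 79 myotube-like cells.

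By the members, myogenic-like and endothelial-like cells had the largest shares in G2/M among classes with at least 50 cells in each library. The 65 other cell cycle genes ranked them differently, with 44.2% to 48.5% of glial-like cells in G2/M, 37.6% to 43.3% of endothelial-like, 34.1% to 36.5% of myogenic-like and 17.3% to 22.6% of FAP-like cells. Glial-like cells were then first in 4 of 4 libraries, and myogenic-like cells stayed above FAP-like cells. In myogenic-like cells 38.6% and 40.3% of WT cells were in G2/M and 40.4% and 42.5% of KO cells, a mean of 40.4% ± 1.60 (SD, n = 4). In FAP-like cells the shares were 17.0% and 20.7% in WT and 19.9% and 21.8% in KO, a mean of 19.9% ± 2.05. The 2 classes did not overlap, and the myogenic-like share was higher in 4 of 4 libraries by 19.5 to 21.5 percentage points. An exact sign-flip test within libraries gave p = 0.125, the smallest that 4 libraries allow.

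Endothelial-like cells reached 43.9% ± 3.19 in G2/M, above myogenic-like cells in 4 of 4 libraries by 0.584 to 5.74 percentage points (exact sign-flip p = 0.125). Macrophage-like, glial-like and smooth muscle or pericyte-like cells followed with means of 30.6%, 28.1% and 27.7%, and neighbours in that order crossed in 2 of 4 libraries. The *Ccl11* cluster had 22.8%, chondrocyte-like cells 20.7%, tenocyte-like cells 20.4% and mast-like cells 19.3%. From chondrocyte-like to mast-like cells, FAP-like cells included, each neighbour in the order was higher in 2 of 4 libraries only.

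S phase ranked the classes differently. At the main limit of 3 UMIs myogenic-like cells led with 17.0% ± 1.19 in S, from 16.1% to 18.7%, and FAP-like cells followed with 12.3% ± 0.747, from 11.4% to 13.2% (n = 4). The gap was 4.27 to 5.54 percentage points in 4 of 4 libraries (exact sign-flip p = 0.125). The second place of FAP-like cells did not hold at the higher limit given below. By summed CPM of the S list macrophage-like cells (896 CPM) were second to myogenic-like cells (1190 CPM). Endothelial-like cells, first in G2/M among the larger classes, had 6.75% ± 0.585 in S, which was 9.51 to 11.6 percentage points under myogenic-like cells. Glial-like and chondrocyte-like cells were near them with 6.99% and 6.95%, and these 3 classes crossed between libraries.

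The height of the shares and the order in S rest on the limit, and the order in G2/M on the genes used, as above. With at least 8 UMIs, an alternative chosen after the data were seen, 31.4% of endothelial-like, 28.4% of myogenic-like, 20.0% of glial-like and 11.6% of FAP-like cells were in G2/M, and 0.84% of all kept cells were in S. Macrophage-like (1.57%), smooth muscle or pericyte-like (0.701%) and *Ccl11* cluster cells (0.679%) then lay above FAP-like cells (0.627%) in S. Myogenic-like cells still led with 1.86%, and endothelial-like cells had 0.594%. Myotube-like cells, which should not divide, had a mean of 4.76% in G2/M and 0.833% in S at the main limit, on 79 cells with a median of 6469 UMIs, beside medians of 9913 in myogenic-like and 10226 in FAP-like cells. The 65 other genes called 40%, 36.4%, 7.69% and 30% of the same cells G2/M in WT replicates 1 and 2 and KO replicates 1 and 2. Free RNA in the droplets can add such UMIs, and its part in the shares was not tested.

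**Figure D2:**
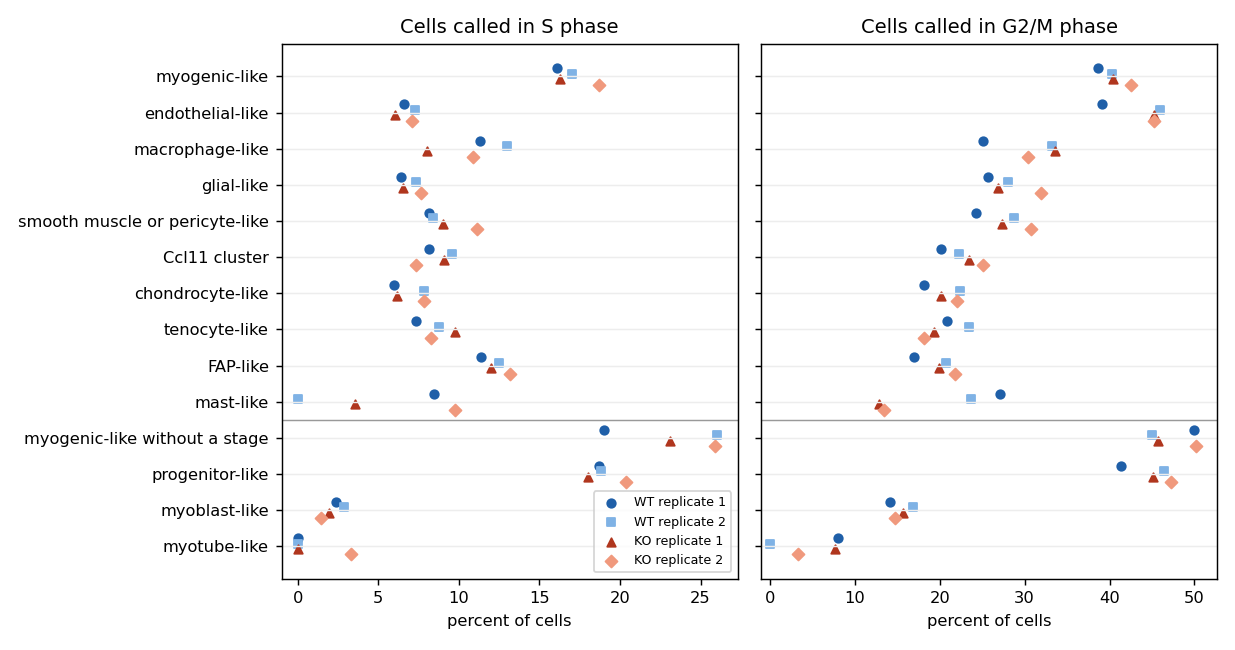
Percent of cells called S and G2/M (horizontal axes) in each cell type, with 1 point per library, WT and KO in different colours, after thinning to 2000 UMIs. Myogenic-like cells (mean 40.4%) and endothelial-like cells (43.9%) lie to the right of FAP-like cells (19.9%) in G2/M. WT and KO points lie apart in G2/M in myogenic-like, mast-like and tenocyte-like cells and the *Ccl11* cluster. In S they lie apart in macrophage-like, smooth muscle or pericyte-like and myoblast-like cells, and elsewhere they overlap.

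The neutrophil-like class had a G2/M share of 65.2%, higher than any other, much of it from 1 gene. With *Hmgb2* left out of the list, 5.88%, 5.08%, 12.5% and 0% of neutrophil-like cells were in G2/M in WT replicates 1 and 2 and KO replicates 1 and 2. The 65 other genes, without *Hmgb2*, placed 31.4%, 28.8%, 37.5% and 20% of them in G2/M. Lymphoid-like cells, 41 in all, had no cell in S, and 26.7% to 63.6% in G2/M.

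Levels of the single genes were compared between myogenic-like and FAP-like cells of the same libraries. For each library the UMIs of a class were added up and are given as CPM, which compare a gene between cell types and not genes with each other, since captured 3' ends carry no length scale. All 34 members were higher in myogenic-like cells and 0 were lower (edgeR's quasi-likelihood test with the library as a block, Benjamini-Hochberg adjustment over 16939 genes, threshold 0.05). Of all genes tested 39.3% were called higher and 42.9% lower, so calls in this comparison were common, and the members' median log2 difference of 1.03 stands beside -0.06 over all genes. The S list had a median of 0.73 and the G2/M list one of 1.18. Of the 65 other cell cycle genes 63 were called higher, 0 lower, and their median was 0.91. Adjusted p-values of the members ran from 3.04e-11 for *Hmgb2* to 0.0106 for *Gins2*. In the following, values are in the order WT replicate 1, WT replicate 2, KO replicate 1 and KO replicate 2, and differences are on the log2 scale. Overlap of the 2 classes is described for single members, but the share of all genes without overlap was not computed. A lack of overlap is therefore not shown to be particular to the members.

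The replicative helicase that unwinds DNA at forks is a ring of 6 MCM proteins. *Mcm2* stood at 41.6, 49.1, 45.9 and 48.3 CPM in myogenic-like cells and 24.4, 30.3, 28.2 and 31.7 CPM in FAP-like cells, a difference of 0.83 (SE 0.04). *Mcm3* stood at 74.8, 85.7, 80.7 and 91.5 CPM in myogenic-like cells and 42.9, 53.9, 46.8 and 54.3 CPM in FAP-like cells, a difference of 0.89 (SE 0.04). In both genes every myogenic-like value lay above every FAP-like value. *Mcm5* was at 35.2, 35.9, 34.7 and 39.7 CPM in myogenic-like cells and 19.1, 24.6, 19.2 and 24.9 CPM in FAP-like cells, a difference of 0.88 (SE 0.06). *Mcm6* was at 92.8, 101, 95.1 and 99.5 CPM in myogenic-like cells and 59.8, 68.4, 62.2 and 67.6 CPM in FAP-like cells, a difference of 0.73 (SE 0.04). *Mcm7* showed the widest gap of the 6 subunits and no overlap. Its levels were 104, 106, 107 and 118 CPM in myogenic-like cells and 46.3, 50.9, 46.8 and 50 CPM in FAP-like cells, a difference of 1.31 (SE 0.04). *Mcm4* differed from its partners, since its levels in the 2 classes overlapped. They were 69.8, 74.2, 69.4 and 76 CPM in myogenic-like cells and 61.7, 77, 71 and 71.7 CPM in FAP-like cells, a difference of 0.18 (SE 0.05) that the test still called. *Gins2*, a subunit of the GINS complex that joins the helicase, was likewise close in both classes. It had 47.8, 49, 48.3 and 48.5 CPM in myogenic-like cells and 43.3, 52.9, 46.1 and 50 CPM in FAP-like cells, a difference of 0.15 (SE 0.05), which lost its call without WT replicate 1 (0.11, edgeR adjusted p = 0.0616).

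*Pcna*, the sliding clamp of the polymerases, had 237, 240, 257 and 251 CPM in myogenic-like cells and 144, 152, 151 and 158 CPM in FAP-like cells, a difference of 0.85 (SE 0.03). *Ung*, which removes uracil from DNA, had 22.8, 26.2, 23.2 and 31 CPM in myogenic-like cells and 14.9, 18.8, 16.3 and 18.4 CPM in FAP-like cells, a difference of 0.73 (SE 0.06). Neither gene overlapped between the classes. The enzymes that supply nucleotides differed by less in the case of *Rrm1* and *Tyms* than in that of *Rrm2*. *Rrm1* was at 77.8, 76.8, 78.5 and 81.2 CPM in myogenic-like cells and 60.9, 64.2, 65.1 and 67.4 CPM in FAP-like cells, a difference of 0.43 (SE 0.04). *Rrm2* was at 69.3, 73.5, 76.1 and 82.7 CPM in myogenic-like cells and 40.2, 45.7, 43.4 and 48.8 CPM in FAP-like cells, a difference of 0.90 (SE 0.04). *Tyms* was at 78.6, 88.7, 81.3 and 88.2 CPM in myogenic-like cells and 62.4, 70.6, 61.3 and 66.8 CPM in FAP-like cells, a difference of 0.51 (SE 0.04). All 3 kept the classes apart in every library. *Slbp*, which binds the stem-loop of histone transcripts, was at 190, 175, 206 and 182 CPM in myogenic-like cells and 152, 151, 165 and 161 CPM in FAP-like cells, a difference of 0.40 (SE 0.04).

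Among the genes of chromosome structure, *Mki67* coats mitotic chromosomes and is the common marker of proliferation. It stood at 198, 201, 203 and 203 CPM in myogenic-like cells and 76.2, 83, 87.8 and 93.3 CPM in FAP-like cells, a difference of 1.39 (SE 0.04). *Top2a*, the topoisomerase that untangles sister chromatids, stood at 347, 350, 356 and 363 CPM in myogenic-like cells and 156, 164, 170 and 195 CPM in FAP-like cells, a difference of 1.19 (SE 0.04). *Hmgb2* stood at 1430, 1340, 1510 and 1440 CPM in myogenic-like cells and 557, 610, 640 and 643 CPM in FAP-like cells, a difference of 1.37 (SE 0.03). The 3 genes had no overlap between the classes.

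The kinase that drives mitosis and its cyclins rose together in myogenic-like cells. *Cdk1* was at 244, 245, 258 and 253 CPM in myogenic-like cells and 144, 155, 157 and 173 CPM in FAP-like cells, a difference of 0.81 (SE 0.04). *Ccnb1* was at 63.8, 64.7, 67.2 and 71.3 CPM in myogenic-like cells and 29.3, 34.9, 36.4 and 42.8 CPM in FAP-like cells, a difference of 1.05 (SE 0.06). *Ccnb2*, a second B-type cyclin, was at 95.6, 97.6, 102 and 97.1 CPM in myogenic-like cells and 48.8, 57, 57.7 and 62.7 CPM in FAP-like cells, a difference of 0.94 (SE 0.05). *Ccna2*, the cyclin of S and G2 phase, parted the classes most among the cyclins. It had 103, 98.6, 103 and 109 CPM in myogenic-like cells and 38.7, 43.9, 42.2 and 51.4 CPM in FAP-like cells, a difference of 1.38 (SE 0.05).

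Of the other mitotic kinases, *Aurka* acts at spindle poles and had 40.7, 42.9, 42.6 and 46.1 CPM in myogenic-like cells and 18.8, 23.5, 23.8 and 25.7 CPM in FAP-like cells, a difference of 1.05 (SE 0.06). *Aurkb*, the kinase of the chromosomal passenger complex, had 84.5, 83.6, 97.3 and 96.7 CPM in myogenic-like cells and 37.5, 39.5, 41.9 and 49.1 CPM in FAP-like cells, a difference of 1.25 (SE 0.04). *Plk1*, which acts at centrosomes and kinetochores, had the smallest difference of the G2/M list. It was at 19.8, 19.2, 18.9 and 23.5 CPM in myogenic-like cells and 13.7, 16.3, 15.9 and 17.9 CPM in FAP-like cells, a difference of 0.49 (SE 0.07). Its lowest myogenic-like value still lay above its highest FAP-like value. *Birc5* (survivin), a partner of AURKB, was at 247, 236, 256 and 251 CPM in myogenic-like cells and 111, 139, 133 and 159 CPM in FAP-like cells, a difference of 1.02 (SE 0.07).

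At the kinetochore, *Cenpf* was at 157, 147, 154 and 158 CPM in myogenic-like cells and 65.6, 70.7, 76.9 and 88.7 CPM in FAP-like cells, a difference of 1.18 (SE 0.06). The kinetochore motor gene *Cenpe* was at 106, 108, 102 and 107 CPM in myogenic-like cells and 46, 52, 53.6 and 62.3 CPM in FAP-like cells, a difference of 1.13 (SE 0.06). *Bub1* and *Bub1b* encode kinases of the spindle checkpoint, and both were called with no overlap. *Bub1* was at 49.4, 49.1, 48.3 and 44.4 CPM in myogenic-like cells and 18.7, 20.8, 20.9 and 23.2 CPM in FAP-like cells, a difference of 1.34 (SE 0.07). *Bub1b* was at 58.4, 61.5, 62 and 62 CPM in myogenic-like cells and 21.6, 25.6, 24.9 and 28.2 CPM in FAP-like cells, a difference of 1.43 (SE 0.05). *Ube2c*, the ubiquitin-conjugating enzyme of the anaphase-promoting complex, had the largest difference of the 34 genes. Its levels were 328, 329, 344 and 371 CPM in myogenic-like cells and 112, 132, 136 and 166 CPM in FAP-like cells, a difference of 1.48 (SE 0.05). *Ube2c* (chr2:164769898-164778822, plus strand, mm10) overlaps the troponin gene *Tnnc2* on the opposite strand, and whether the counting used strand is not given in the sources used here.

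The spindle genes completed the list. *Tpx2*, which activates AURKA on the spindle, was at 111, 123, 119 and 120 CPM in myogenic-like cells and 55.5, 63.2, 62.2 and 73.1 CPM in FAP-like cells, a difference of 1.04 (SE 0.05). *Kif11*, the motor that pushes the poles apart, was at 137, 136, 135 and 120 CPM in myogenic-like cells and 56.4, 58.4, 64.6 and 66 CPM in FAP-like cells, a difference of 1.25 (SE 0.06). *Kif23*, a motor of the central spindle needed for cytokinesis, was at 113, 104, 110 and 104 CPM in myogenic-like cells and 50.8, 56.5, 55.7 and 66.5 CPM in FAP-like cells, a difference of 1.06 (SE 0.07). None of the 3 overlapped between the classes. *Nusap1* and *Prc1* bundle spindle microtubules. *Nusap1* was at 150, 151, 145 and 155 CPM in myogenic-like cells and 64.1, 66.9, 67.4 and 77.9 CPM in FAP-like cells, a difference of 1.27 (SE 0.04). *Prc1* was at 169, 161, 179 and 167 CPM in myogenic-like cells and 92.6, 97.4, 106 and 122 CPM in FAP-like cells, a difference of 0.84 (SE 0.06). The mean level of *Prc1* was higher in glial-like cells (175 CPM) than in myogenic-like cells (169 CPM).

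Over 10 cell types with at least 50 cells in each library, myogenic-like cells had the highest mean for 27 of the 34 members. Macrophage-like cells were highest for *Mcm5* (38.4 CPM), *Gins2* (51.0 CPM) and *Pcna* (251 CPM), endothelial-like cells for *Tyms* (86.8 CPM) and *Plk1* (26.3 CPM), and glial-like cells for *Cenpf* (159 CPM) and *Prc1* (175 CPM). Mast-like cells had the lowest mean for 30 members. The share of all genes highest in myogenic-like or lowest in mast-like cells was not computed. These counts are not of independent genes, since cycling cells carry UMIs of many members. *Kif11* spanned the widest range, from 18.0 CPM in mast-like to 132 CPM in myogenic-like cells.

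**Figure D3:**
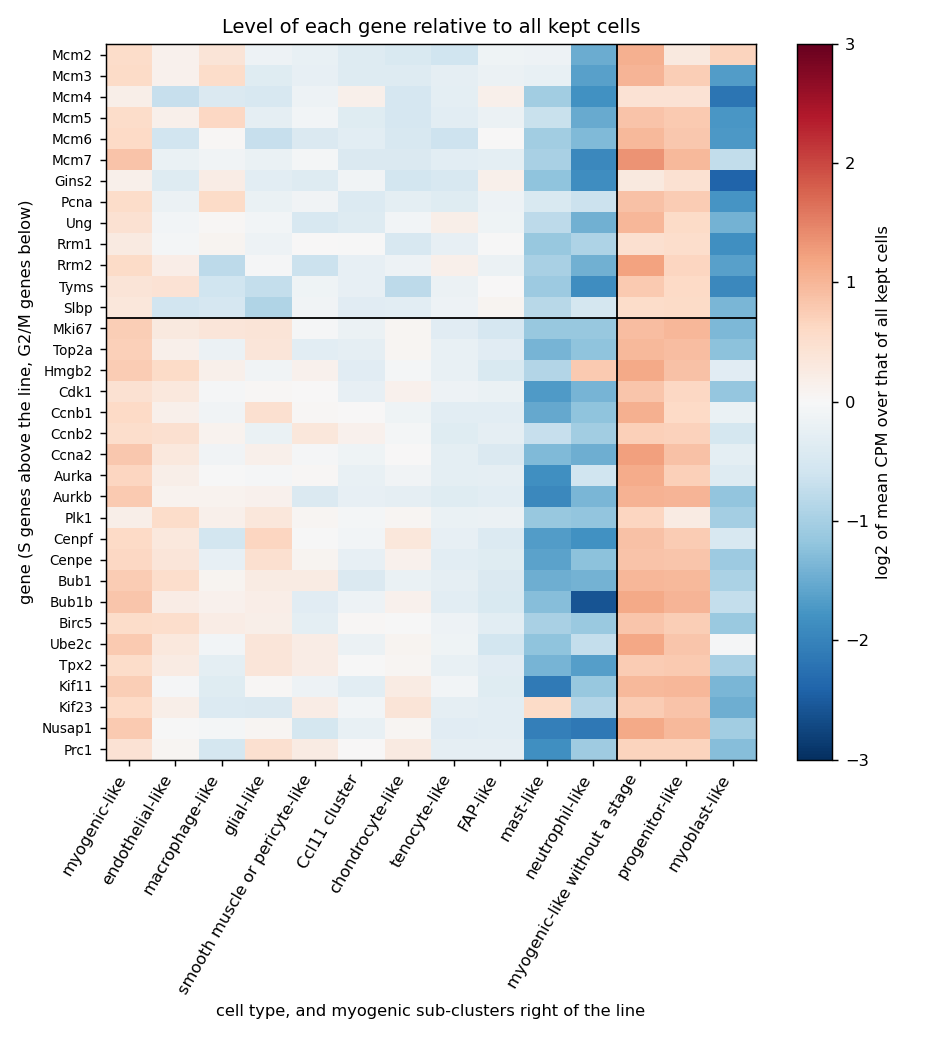
Mean level of each member in each cell type as log2 of its mean CPM over that of all kept cells (colour), with S genes above and G2/M genes below the line and the myogenic sub-clusters at the right. Of the 10 types with at least 50 cells in each library, myogenic-like cells are highest for 27 of 34 genes and mast-like cells lowest for 30, while *Kif23* in mast-like and *Hmgb2* in neutrophil-like cells stand out against their columns.

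The lists parted in endothelial-like and glial-like cells. In endothelial-like cells 20 of the 21 G2/M members were above the FAP-like level in all 4 libraries, with a median ratio of 1.60, while of the 13 S members 4 were higher and 4 lower in all 4 libraries, with a median ratio of 1.04. *Hmgb2* had the largest ratio there, 2.04 (1.73 to 2.33), and *Mcm4* the smallest, 0.563 (0.524 to 0.601). In glial-like cells 18 G2/M members were higher in all 4 libraries with a median ratio of 1.50, led by *Cenpf* with 2.12 (1.89 to 2.36). Of the S members 1 was higher and 7 were lower there, and *Slbp* had the smallest ratio, 0.502 (0.473 to 0.550). In macrophage-like cells S members went both ways, with 7 higher and 4 lower in all 4 libraries. *Mcm5*, *Pcna* and *Mcm3* had ratios of 1.75, 1.67 and 1.65 there, and *Tyms*, *Rrm2* and *Slbp* ratios of 0.651, 0.666 and 0.672. These ratios are descriptions and were not tested, and the share of all genes that went the same way in all 4 libraries was not computed. The members are also not independent, since cycling cells carry UMIs of many of them.

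Along the myogenic stages the members were highest in progenitor-like cells and in the cells without a stage, lower in myoblast-like and lowest in myotube-like cells. Progenitor-like cells had 45.0% ± 2.60 in G2/M and 19.0% ± 1.01 in S, cells without a stage 47.7% ± 2.74 and 23.5% ± 3.28, and myoblast-like cells 15.3% ± 1.25 and 2.15% ± 0.621 (SD, n = 4). The fall from progenitor-like to myoblast-like cells was 27.3 to 32.5 percentage points in G2/M and 15.9 to 19.0 in S, in 4 of 4 libraries each (exact sign-flip p = 0.125, the smallest possible). In level 33 of the 34 members were lower in myoblast-like than in progenitor-like cells in all 4 libraries. The share of all genes that were lower in the same way was not computed, so this count has no background beside it. The median ratio was 0.189 for the S list and 0.290 for the G2/M list.

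*Pcna* stood at 266, 287, 303 and 287 CPM in progenitor-like cells and at 55.2, 52.6, 46.5 and 44.3 CPM in myoblast-like cells. *Mki67* stood at 224, 242, 254 and 246 CPM in progenitor-like and at 34, 64.6, 45.6 and 44.6 CPM in myoblast-like cells. The lowest ratio belonged to *Gins2*, 0.137 (0.104 to 0.166), and among the genes that were lower *Ccnb1* and *Ube2c* had the highest, 0.574 (0.455 to 0.753) and 0.550 (0.377 to 0.734). *Ccnb1* had 61.8, 62.3, 69.2 and 77.2 CPM in progenitor-like and 29.9, 46.9, 41.9 and 35.1 CPM in myoblast-like cells. In myotube-like cells the median ratio to progenitor-like cells was 0.121 for the S list and 0.0263 for the G2/M list, on 79 cells.

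A single member did not fall. *Mcm2* (ENSMUSG00000002870, chr6:88883474-88898780, minus strand, mm10) stood at 36.9, 41, 36.6 and 39.5 CPM in progenitor-like cells and at 41.4, 54.2, 58 and 46.5 CPM in myoblast-like cells, a ratio of 1.30 (1.12 to 1.58) that was above 1 in 4 of 4 libraries. Its partner *Mcm5* stood at 40.9, 42, 41.3 and 46.1 CPM and at 9.33, 8.5, 6.6 and 5.5 CPM. In cells placed in neither phase by the 65 other genes, *Mcm2* had 42.6, 49.2, 54.0 and 41.5 CPM in 770 myoblast-like cells and 26.0, 21.1, 20.1 and 31.0 CPM in 1133 progenitor-like cells, without overlap. A *Mcm2* UMI was found in 38.6% and 15.1% of these cells, at a median of 11440 and 7557 UMIs per cell. *Mcm5* in the same cells had 3.79 CPM in myoblast-like and 16.6 CPM in progenitor-like cells. *Mcm2* was also the member most raised in the cells without a stage, at 1.71 times (1.54 to 1.84) the progenitor-like level.

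*Kif23* (ENSMUSG00000032254, chr9:61915905-61946774, minus strand, mm10) was the only member above the FAP-like level in mast-like cells of all 4 libraries, while 24 members were below it in all 4. It stood at 133, 99.8, 116 and 78.5 CPM in mast-like and at 50.8, 56.5, 55.7 and 66.5 CPM in FAP-like cells, a ratio of 1.91 (1.18 to 2.62). *Prc1*, another gene of the central spindle, stood at 47.8, 20.8, 20.5 and 50.1 CPM in mast-like cells and at 92.6, 97.4, 106 and 122 CPM in FAP-like cells. In cells in neither phase, *Kif23* had 156, 93.3, 105 and 66.7 CPM in 196 mast-like cells and 8.89, 11.0, 8.22 and 9.94 CPM in 9632 FAP-like cells. It was detected in 51.5% of the former and in 7.70% of the latter, at median depths of 10643 and 9421 UMIs. The mast-like counts are small, with 343 UMIs of *Kif23* in all.

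*Hmgb2* (ENSMUSG00000054717, chr8:57511907-57515999, plus strand, mm10) was the counterpart in neutrophil-like cells. It stood at 1420, 1780, 1460 and 1190 CPM there, at a ratio of 2.40 (1.85 to 2.92) to FAP-like cells, and no other member was above the FAP-like level in all 4 libraries. Neutrophil-like cells in neither phase, 143 in all, had 1170, 1570, 1220 and 1100 CPM of *Hmgb2*, and FAP-like cells in neither phase had 213, 232, 248 and 214 CPM. *Mki67* was at 54.3 CPM in neutrophil-like cells, below its FAP-like values. These 3 genes were singled out after their values were seen, and the comparisons are descriptions without a test. How many of all genes lay above or below the FAP-like level in the same way was not computed.

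**Figure D4:**
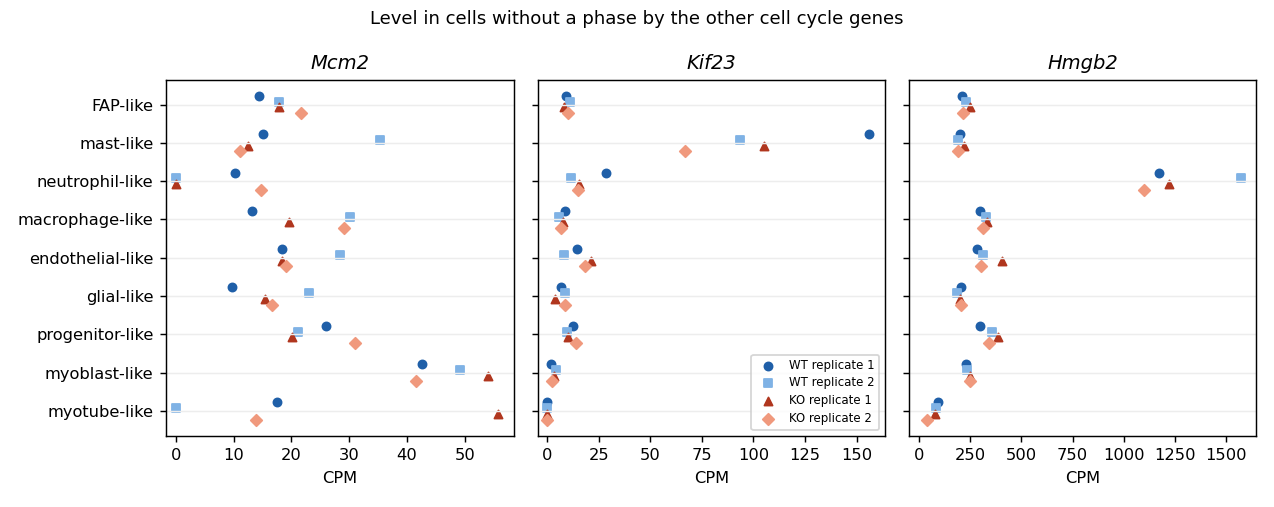
Level in CPM (horizontal axes, 1 panel per gene) of *Mcm2*, *Kif23* and *Hmgb2* in cells of 9 types that 65 other cell cycle genes place in neither phase, with 1 point per library. *Mcm2* averages 46.8 CPM in myoblast-like and 24.6 CPM in progenitor-like cells, *Kif23* 105 CPM in mast-like and 9.52 CPM in FAP-like cells, and *Hmgb2* 1270 CPM in neutrophil-like and 227 CPM in FAP-like cells.

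Whether the KO moved the shares was asked in every type. No share can pass 0.05 here, since the exact two-sided permutation test of 2 against 2 libraries cannot go below p = 0.333, and the smallest adjusted p over 36 shares was 0.924. In FAP-like cells the G2/M share was 1.96 percentage points higher in KO than in WT, and the libraries overlapped (exact permutation p = 0.667). In myogenic-like cells it was 2.03 percentage points higher, with both KO libraries above both WT libraries (exact permutation p = 0.333). The S share of myogenic-like cells was 0.937 percentage points higher, and the libraries overlapped. Without KO replicate 2 the G2/M difference was 1.02 in myogenic-like and 0.978 in FAP-like cells, and the S difference in myogenic-like cells was -0.273.

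The G2/M share of both KO libraries was under that of both WT libraries in the case of tenocyte-like cells (20.8% and 23.4% in WT, 19.3% and 18.2% in KO) and of mast-like cells (27.1% and 23.7% in WT, 12.9% and 13.4% in KO). With list scores the mast-like shares were 20.3% and 22% in WT and 20% and 18.3% in KO. The tenocyte-like shares overlapped when called from the 65 other genes, at 21.8% and 23.2% in WT and 23.6% and 19% in KO. Both KO libraries lay above in the *Ccl11* cluster (20.2% and 22.3% in WT, 23.5% and 25.1% in KO). In neutrophil-like cells, with 25 cells in each KO library, they also lay above (56.9% and 61% in WT, 70.8% and 72% in KO). In S phase they lay above over all kept cells, by 0.919 percentage points, and in smooth muscle or pericyte-like cells, by 1.78, and below in macrophage-like cells, by 2.72 points, and in myoblast-like cells, by 0.945 points. Each of these has the smallest possible exact permutation p of 0.333, which the separation of the libraries fixes. The S difference in smooth muscle or pericyte-like cells turned to -0.564 with at least 8 UMIs, and with the 65 other genes its libraries overlapped. Myoblast-like cells had 15.5% ± 2.02 of WT and 15.2% ± 0.679 of KO cells in G2/M (SD, n = 2), which overlapped. Without thinning the myogenic-like G2/M difference turned to -0.745 and that over all kept cells to -0.231, with deeper cells in WT. There 89.9% to 94.3% of myogenic-like and 85% to 89.2% of all kept cells passed the limit of 3 UMIs, so these signs say little about phase.

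**Figure D5:**
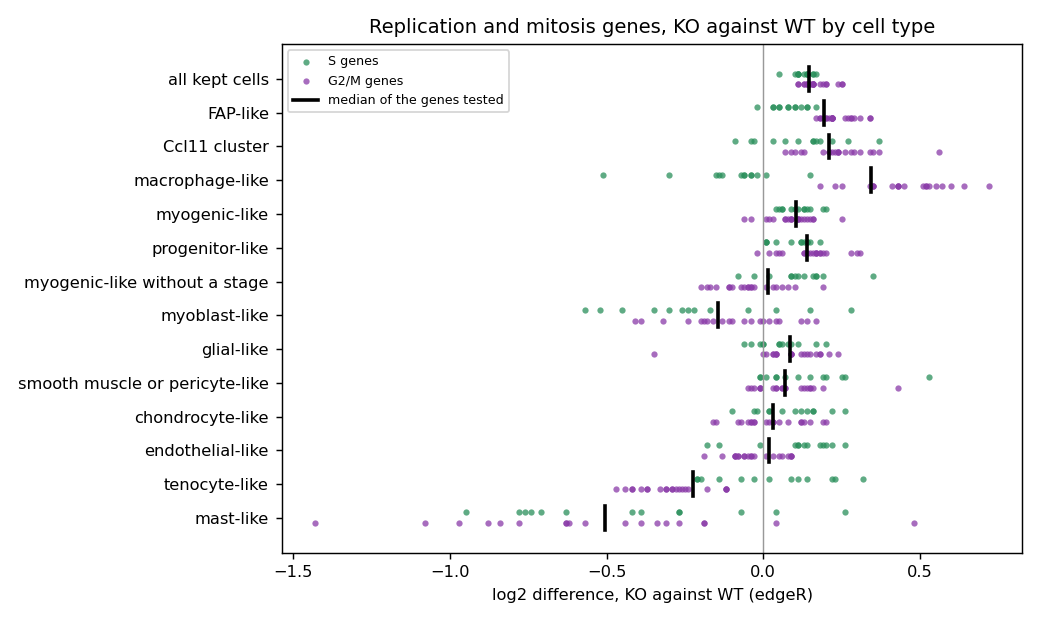
Log2 difference of each member between KO and WT (horizontal axis) in each cell type, with S and G2/M genes in different colours and a bar at the median, from edgeR fits of 2 against 2 libraries. Medians run from -0.51 in mast-like to 0.34 in macrophage-like cells, and 0 members passed the adjusted threshold of 0.05 in any type in these fits.

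In level 0 of the 34 members passed the threshold in KO against WT in myogenic-like cells (edgeR's quasi-likelihood test, 0% of 14614 genes called). Unadjusted, 3 members were higher and 0 lower at p under 0.05, where 3.63% of all genes fell under that limit, and DESeq2 called 0 members. *Aurkb* had the smallest p and stood at 84.5 and 83.6 CPM in WT and at 97.3 and 96.7 CPM in KO, a log2 difference of 0.25 (SE 0.07, edgeR adjusted p = 0.963). *Ube2c* stood at 328 and 329 CPM in WT and at 344 and 371 CPM in KO (0.16, SE 0.07). *Rrm2* stood at 69.3 and 73.5 CPM in WT and at 76.1 and 82.7 CPM in KO (0.20, SE 0.09). The KO values of all 3 lay above their WT values. The 3 were picked for the smallest p in these same libraries, which favours such a separation, so it adds nothing to the fit. The members' median was 0.10, with 32 of 34 values above 0, beside a median of 0.00 over all genes. The values of the members are not independent, since 1 cycling cell carries UMIs of many of them.

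In FAP-like cells 0 of 34 members were called by edgeR (0% of 18080 genes) and 0 by DESeq2, and 10 were higher and 0 lower before adjustment (p under 0.05), against 2.78% of all genes. *Cenpf* stood at 65.6 and 70.7 CPM in WT and at 76.9 and 88.7 CPM in KO (log2 difference 0.31, SE 0.09, edgeR adjusted p = 0.999). *Prc1* stood at 92.6 and 97.4 CPM in WT and at 106 and 122 CPM in KO (0.29, SE 0.08). *Kif11* stood at 56.4 and 58.4 CPM in WT and at 64.6 and 66 CPM in KO (0.22, SE 0.07). The members' median was 0.20, with a range of 0.11 to 0.26 when 1 library was left out. Over all kept cells 0 members and 0% of 20419 genes were called, with 8 members higher and 0 lower before adjustment (p under 0.05) against 4.71% of all genes.

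In progenitor-like cells 0 members were called (0% of 13554 genes), with 5 higher and 0 lower before adjustment (p under 0.05) against 3.84% of all genes, and a median of 0.14. Myoblast-like cells had 0 called (0%), with 0 higher and 1 lower before adjustment (p under 0.05) against 5.21%, and a median of -0.15. The member was *Mcm6*, with a log2 difference of -0.57 (SE 0.21, edgeR adjusted p = 0.831). The direction in myoblast-like cells followed the WT libraries. *Top2a* stood at 55.2 and 140 CPM in WT and at 86.4 and 89.9 CPM in KO. Without WT replicate 1 its log2 difference was -0.61 (edgeR adjusted p = 0.000784) and without WT replicate 2 it was 0.68 (adjusted p = 0.00674). In each of these fits 3 members were called, all lower in the first and all higher in the second, and the median over the members went from -0.37 to 0.26. A group reduced to 1 library is taken to vary like the other group. Cells without a stage had 0 called (0%), with 1 higher and 0 lower against 4.43%, and a median of 0.01.

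The lists went apart in macrophage-like cells. There 0 members were called (0%), while 13 were higher and 1 was lower before adjustment (p under 0.05), against 4.07% of all genes. The G2/M list had a median of 0.43 with 21 of 21 values above 0, and the S list one of -0.06 with 2 of 13 above 0. *Mki67* stood at 116 and 142 CPM in WT and at 178 and 186 CPM in KO (0.52, SE 0.13, edgeR adjusted p = 1.00). Without WT replicate 2, 5 members were called higher, namely *Ube2c*, *Birc5*, *Ccnb2*, *Mki67* and *Nusap1*, and the median over the members, 0.34, was 0.13 without WT replicate 1 and 0.19 without KO replicate 2. Without the filter on low counts *Ube2c* was called higher with all 4 libraries (0.73, edgeR adjusted p = 0.0304). In tenocyte-like cells the G2/M list lay on the other side, with a median of -0.29 and 0 of 21 values above 0, and the S list had 0.02. There 0 members were called (0%), with 0 higher and 9 lower before adjustment (p under 0.05) against 3.13%. *Mki67* stood at 95.5 and 125 CPM in WT and at 78 and 82.7 CPM in KO there (-0.42, SE 0.13, edgeR adjusted p = 0.999). Without KO replicate 2 *Cenpf* was called lower (-0.63, edgeR adjusted p = 0.00492). The median over all members, -0.23, was -0.09 with cell cycle genes kept in the clustering.

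In the *Ccl11* cluster 0 members were called (0%), with 13 higher and 0 lower before adjustment (p under 0.05) against 5.20% of all genes, and a median of 0.21. Mast-like cells had 0 of 32 tested members called (0.0982% of all genes were), with 0 higher and 5 lower before adjustment (p under 0.05) against 6.86%, and a median of -0.51 on 286 cells. Without WT replicate 2, *Hmgb2*, *Birc5* and *Rrm2* were called lower in mast-like cells, and the median was -0.79. Leaving out WT replicate 1 instead gave -0.16, and KO replicate 2 gave -0.74. Smooth muscle or pericyte-like cells had 0 called (0.143% of all genes were), with 3 higher and 0 lower against 5.46%, and *Cenpf* was called higher without WT replicate 2 (0.55, edgeR adjusted p = 0.0205). In endothelial-like cells 0 members were called (0.0170% of all genes were) and 0 fell under an unadjusted p of 0.05, where 3.63% of all genes did. Chondrocyte-like cells also had 0 called (0%) and 0 under an unadjusted p of 0.05, against 2.11%. Glial-like cells had 0 called (0%), with 0 higher and 1 lower against 3.79%. The medians of these last 2 types, 0.03 and 0.08, turned to -0.15 and -0.03 without KO replicate 2. DESeq2 called 0 members in each of these fits.

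An interaction fit with the library as a block asked whether KO moved the members unequally in myogenic-like cells and FAP-like cells. In it 0 of 34 members were called (0.00561% of all genes were), with 0 higher and 3 lower before adjustment (p under 0.05) against 3.15% of all genes, and DESeq2 called 0. The 3 were *Kif11* (-0.29, SE 0.08), *Cenpe* (-0.27, SE 0.09) and *Cenpf* (-0.24, SE 0.09), each with an edgeR adjusted p of 1.00. Of the 65 other cell cycle genes, 0 were called in KO against WT in any of the 14 groups of cells.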

How the data were processed

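Leg muscle cells of 2 WT and 2 KO libraries were profiled with the 10x Genomics 3' v3 chemistry. The submitters' processing notes name Cell Ranger 7.2.0 and mm10, and the authors deposited the UMI counts of each gene in each cell, not normalized. Whether intronic reads were counted is not given in the sources used here. The filter of the study's methods was applied (1000 to 6000 genes, 1000 to 25000 UMIs and a mitochondrial share under 8%). All KO comparisons share the same 4 libraries.

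Cells were clustered with scanpy 1.11.5 (3000 variable genes, 30 principal components, 20 neighbours, Leiden resolution 0.3) without cell cycle genes and genes with r above 0.2 to the summed members. The latter were left out after first clusters had been seen. Clusters were named by a rule set after they were seen, with at least 3 markers and 50% of a list raised 2 times, or, for FAP-like cells, at least 5 FAP markers at 25% or more of their highest cluster. Doublets were kept, and removal of Scrublet calls (1.65% to 2.48% of kept cells) was an alternative. Phases were called after thinning to 2000 UMIs.

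CPM and all tests were computed here from the deposited counts. UMIs summed per library and class were tested with edgeR 4.0.16 in R 4.3.3 (quasi-likelihood, TMM, filterByExpr, Benjamini-Hochberg over all genes, threshold 0.05), with DESeq2 1.42.0 as an alternative, and edgeR was tested on simulated data. Shares were compared by exact permutation over libraries. The members, lists and tests were chosen with earlier results of these data known. Values per library are given for members called in any fit, for 3 members with the smallest p of KO against WT in myogenic-like and in FAP-like cells, and for the genes singled out in the text.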

Additional observations from a re-analysis of the deposited data

Results flagged for a closer look

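Differences between KO and WT went in opposite directions in 5 pairs of cell types, with both KO libraries above both WT libraries in the first type and below in the second. Only the 10 types with at least 50 cells in each library were screened. In G2/M the *Ccl11* cluster and mast-like cells differed in their KO minus WT difference by 15.3 percentage points, and myogenic-like and mast-like cells by 14.2 points. The *Ccl11* cluster and tenocyte-like cells differed by 6.39 points and myogenic-like and tenocyte-like cells by 5.35 points, again in G2/M. In S phase smooth muscle or pericyte-like and macrophage-like cells differed by 4.50 points. The difference in smooth muscle or pericyte-like cells behind it was 1.78 points and turned to -0.564 with at least 8 UMIs. Without thinning both KO libraries (29.3% and 30.6%) lay below both WT libraries (32.5% and 32.9%). A permutation of the genotype labels over the 4 libraries gave an exact p of 0.333 for each of the 5, the smallest it can give, so none can pass 0.05. The choice of pairs with separated libraries fixed that p in advance, so it adds nothing to the values. With list scores the mast-like G2/M shares were 20.3% and 22% in WT and 20% and 18.3% in KO, so the gaps that rest on mast-like cells shrink. With the 65 other cell cycle genes the tenocyte-like libraries overlapped. The mast-like class had 59 and 60 WT cells and 85 and 82 KO cells.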

How the results depend on the processing

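The 34 calls of myogenic-like against FAP-like cells were 33 to 34 under every alternative, with 0 lower. *Gins2* was not called without the filter on low counts (0.11, adjusted p = 0.0544). The median over the members was 0.85 with cell cycle genes kept in the clustering and 0.95 to 1.08 when 1 library was left out. In KO against WT 0 members were called under every alternative in myogenic-like, FAP-like, progenitor-like and all kept cells. Elsewhere 1 member was called in the *Ccl11* cluster with a replicate block and 1 in macrophage-like cells without the filter. Leaving out 1 library gave 0 to 5 called members in macrophage-like, 0 to 3 in mast-like, 0 to 3 in myoblast-like, 0 to 1 in smooth muscle or pericyte-like and 0 to 1 in tenocyte-like cells. Counts of all called genes moved more. DESeq2 called 51 genes in all kept cells, 4 in the *Ccl11* cluster, 4 in endothelial-like, 5 in FAP-like, 2 in macrophage-like, 22 in mast-like and 1 in myogenic-like cells, and 2 in the interaction. Without the filter on low counts there were 55 in chondrocyte-like, 58 in endothelial-like, 55 in glial-like, 35 in macrophage-like, 0 in mast-like, 27 in myoblast-like, 155 in smooth muscle or pericyte-like and 45 in tenocyte-like cells and 24 in cells without a stage. With the replicate block there were 99 in the *Ccl11* cluster, 15 in chondrocyte-like, 14 in endothelial-like, 73 in glial-like, 8 in macrophage-like, 0 in mast-like, 12 in myoblast-like, 2 in progenitor-like, 171 in smooth muscle or pericyte-like and 13 in tenocyte-like cells and 10 in cells without a stage. The replicate numbers have no stated shared origin, and the differences between replicates 1 and 2 in WT and in KO correlated across genes at r = 0.191 in all kept, 0.0894 in myogenic-like and 0.171 in FAP-like cells, so the blocked counts are a description. With Scrublet doublets removed there were 1 in the *Ccl11* cluster, 3 in mast-like and 6 in smooth muscle or pericyte-like cells and 0 in the interaction. When 1 library was left out the counts were 0 to 58 in all kept cells, 28 to 114 in the *Ccl11* cluster, 4 to 12 in chondrocyte-like, 5 to 145 in endothelial-like, 0 to 21 in FAP-like, 0 to 16 in glial-like, 10 to 113 in macrophage-like, 0 to 214 in mast-like, 1 to 55 in myoblast-like, 0 to 8 in myogenic-like, 0 to 6 in progenitor-like, 76 to 105 in smooth muscle or pericyte-like and 0 to 192 in tenocyte-like cells, 5 to 63 in cells without a stage and 2 to 19 in the interaction. Shares are given as KO minus WT in percentage points. Without thinning, which lets the deeper WT cells count more UMIs, the differences were -0.949 in S, -0.231 in G2/M and -1.18 in both together over all kept cells, -2.01 in S and -1.83 in both in FAP-like cells, and -0.745 in G2/M and -0.702 in both in myogenic-like cells. The difference in both together was -1.76 in the *Ccl11* cluster, -6.18 in chondrocyte-like, -2.26 in glial-like and -2.62 in smooth muscle or pericyte-like cells. Without thinning 85% to 89.2% of all kept cells passed the limit of 3 UMIs, so these signs say little about phase. Over all kept cells the S difference was 0.27 at 1000 UMIs, 1.62 at 4000 UMIs, 1.53 with at least 2 UMIs, 0.0703 with at least 8 UMIs and 1.91 with list scores. For S and G2/M together, thinning to 4000 UMIs gave 5.99 in the *Ccl11* cluster, 6.97 in endothelial-like and 0.283 in tenocyte-like cells, the other cell cycle genes gave 4.62, -0.899 and 0.769 in the *Ccl11* cluster, glial-like and tenocyte-like cells, list scores gave 4.37, -1.36 and 1.17 in the *Ccl11* cluster, mast-like and tenocyte-like cells, and at least 8 UMIs gave 0.391 in smooth muscle or pericyte-like cells. Leaving out 1 library gave 0.476 to 1.36 in S, 0.636 to 3.53 in G2/M and 1.11 to 4.89 in both over all kept cells, 0.0542 to 1.20, 0.112 to 3.81 and 0.177 to 4.99 in FAP-like cells and -0.273 to 2.15, 1.02 to 3.05 and 0.746 to 5.19 in myogenic-like cells. In both together it gave 0.689 to 4.17 in the *Ccl11* cluster, -2.22 to 3.91 in chondrocyte-like, -1.58 to 6.02 in endothelial-like, -0.233 to 5.83 in glial-like, -4.74 to 5.04 in macrophage-like, -15.8 to -3.91 in mast-like, 1.56 to 6.96 in smooth muscle or pericyte-like and -4.35 to -0.361 in tenocyte-like cells. The cause of these moves was not tested. With 2 libraries per genotype, shares cannot pass a test, and the intervals of the counts cover counting error only.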
